A study of Mus musculus with 12 samples.

Results

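Actin filaments and the adhesion plaques that anchor them were followed at the mRNA level in murine helper T cells through 42 genes. They were chosen by symbol and known function among the 11247 genes that the deposited tables list, with earlier results of these data known. The genes comprise 2 actins, 3 filament crosslinkers, 6 myosin chains, 4 adhesion plaque proteins, 2 MICAL enzymes, 7 proteins of monomer binding and filament turnover, 6 of Arp2/3 branching and WASP, 2 capping proteins, 3 ezrin-radixin-moesin (ERM) proteins, 2 tropomyosins, and 5 of GTPase signalling. All 42 were listed in the Th17 table and 41 in the iTreg table, where Myo1f had no row. Naive CD4+CD62L+ T cells from spleens of C57BL/6 mice, 8 to 10 weeks old, had been activated with anti-CD3 and anti-CD28 (1 µg/ml of each) in every group and were cultured for 3 d. Th0 cells received no polarizing cytokines. Th17 cultures also held 30 ng/ml IL6, 5 ng/ml TGFb1, and antibodies to IL4 and IFNγ (10 µg/ml of each). iTreg cells, which the labels call Treg, were given IL2 and TGFb1, both at 10 ng/ml according to the labels. The authors' methods give a higher TGFb1 concentration for iTreg conditions. RNA-seq values were available for 12 libraries, 4 per group. Whether the cells of several mice were pooled is not stated.

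A T cell that meets its antigen rebuilds its actin cortex. Profilin and thymosins hold the monomer pool, the Arp2/3 complex under WASP adds branched filaments at the contact, capping proteins and cofilin end or sever filaments, and myosin II contracts them. Talin, vinculin, paxillin, and zyxin join filaments to integrins, and small GTPases direct the whole. Serum response factor (SRF) drives many of these genes when its coactivators are released from actin monomers.

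The tables give FPKM, reads scaled to gene length and library size. Depth relative to the median library, read from the steps of low values, was 0.843 to 1.1 in the Th17 table and 0.825 to 1.19 in the iTreg table. All 5 CD4 T cell markers looked for (Cd3e, Cd3d, Cd3g, Cd4, and Cd28) were present, with summed FPKM of 738 to 1673 in Th0, 523 to 1048 in Th17, and 587 to 904 in iTreg libraries. The cytokine gene Il17f was at 0.0909 to 0.184 FPKM in Th0 and 281 to 788 FPKM in Th17 libraries, but also at 26.9 to 99.2 FPKM in iTreg libraries, and Foxp3 was at 62.0 to 91.8 FPKM in iTreg libraries. A single Th17 library, with the heading M43_5, had 42.5 FPKM of Foxp3, where the other Th17 libraries had 0.499 to 4.5 FPKM. Without it, 10 actin and adhesion genes were called in Th17 cells (5 higher and 5 lower) in place of 11, with Pfn1 no longer called, Mical2 not testable, and Ezr called lower (limma adjusted p = 0.0377). No red cell or platelet marker was listed, and of the B cell, myeloid, CD8 or NK, and fibroblast markers only Cd79a, Cd68, Cd8b1, and Tagln were, with Col1a1, Acta2, Lyz2, and Csf1r among those without a row. Tagln, also an actin-binding gene, was at 1.30 to 3.21 FPKM in Th0, 1.73 to 3.01 in Th17, and 1.73 to 2.24 in iTreg libraries.

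Each gene was tested on log2(FPKM + 1) with limma across all genes that exceeded 1 FPKM in 4 or more of a table's 8 libraries, and a gene is called where the Benjamini-Hochberg adjusted p was at most 0.05. Column headings begin with M22, M29, M42, or M43 in every group, and libraries that begin alike deviated from their group means together. A second limma fit therefore took the heading beginning as a block. What the beginnings mark is not stated. The labels number 4 experiments with a library of every group in each, and the authors paired libraries in their own test. Which heading belongs to which experiment is not given. The fit without the block uses no pairing, and both results are given where the call differs. Library values are listed in the order M22, M29, M42, M43. The Th0 libraries are the same in both tables but were scaled apart by constant factors of 1.01, so their values are listed once, from the Th17 table, with no test of Th17 against iTreg cells. Where the libraries of a group lay entirely above or below the Th0 libraries, the two-sided exact permutation test gave p = 0.029, the smallest that 4 libraries against 4 allow.

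In Th17 cells, 6 of the 41 tested genes rose (Capg, Mical1, Mical2, Zyx, Pxn, and Flna) and 5 fell (Rac2, Wipf1, Tmsb10, Tmsb4x, and Pfn1). These 11 genes are 26.8% of those tested, beside 19.3% of all 10269 tested genes (10.6% higher and 8.69% lower). With the block, 17 of the 41 were called (7 higher and 10 lower; 41.5%), beside 37.8% of all genes. Groups did not overlap for 14 of the 41 genes, which include Was, Capzb, and Ezr besides the called ones, and for 23.8% of all genes. In iTreg cells, 5 of 41 rose (Mical2, Capg, Mical1, Myl12a, and Vcl) and 4 fell (Wipf1, Rac2, Tmsb10, and Actn1), 22% beside 16.6% of all 10208 tested genes (8.36% higher and 8.21% lower). The block gave 16 called genes (10 higher and 6 lower; 39.0%), beside 40.9% of all genes. Libraries did not overlap for 11 genes, among them Pxn and Msn, which were not called without the block, and for 22.8% of all genes. Mical2 is among the higher and the non-overlapping genes of both comparisons. It passed the filter only through its Th17 or iTreg libraries, so its direction and lack of overlap were set by the filter. The actin and adhesion genes were chosen with earlier results of these data known, so their shares are descriptive. Without the block the shares of actin and adhesion genes were somewhat above those of all genes, and with it they lay within a few percent of them. Their median log2 fold change was 0.0054 in Th17 cells and 0.037 in iTreg cells, where the medians of all tested genes were -0.00071 and 0.011. Changes within 0.2 of 0 on the log2 scale were seen for 20 of the 41 genes in Th17 cells (48.8%, against 45.2% of all genes) and for 24 in iTreg cells (58.5%, against 48.9%). A lower level in bulk RNA can come from fewer cells that express a gene or from less RNA per cell, and these cannot be told apart here.

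**Figure D1:**
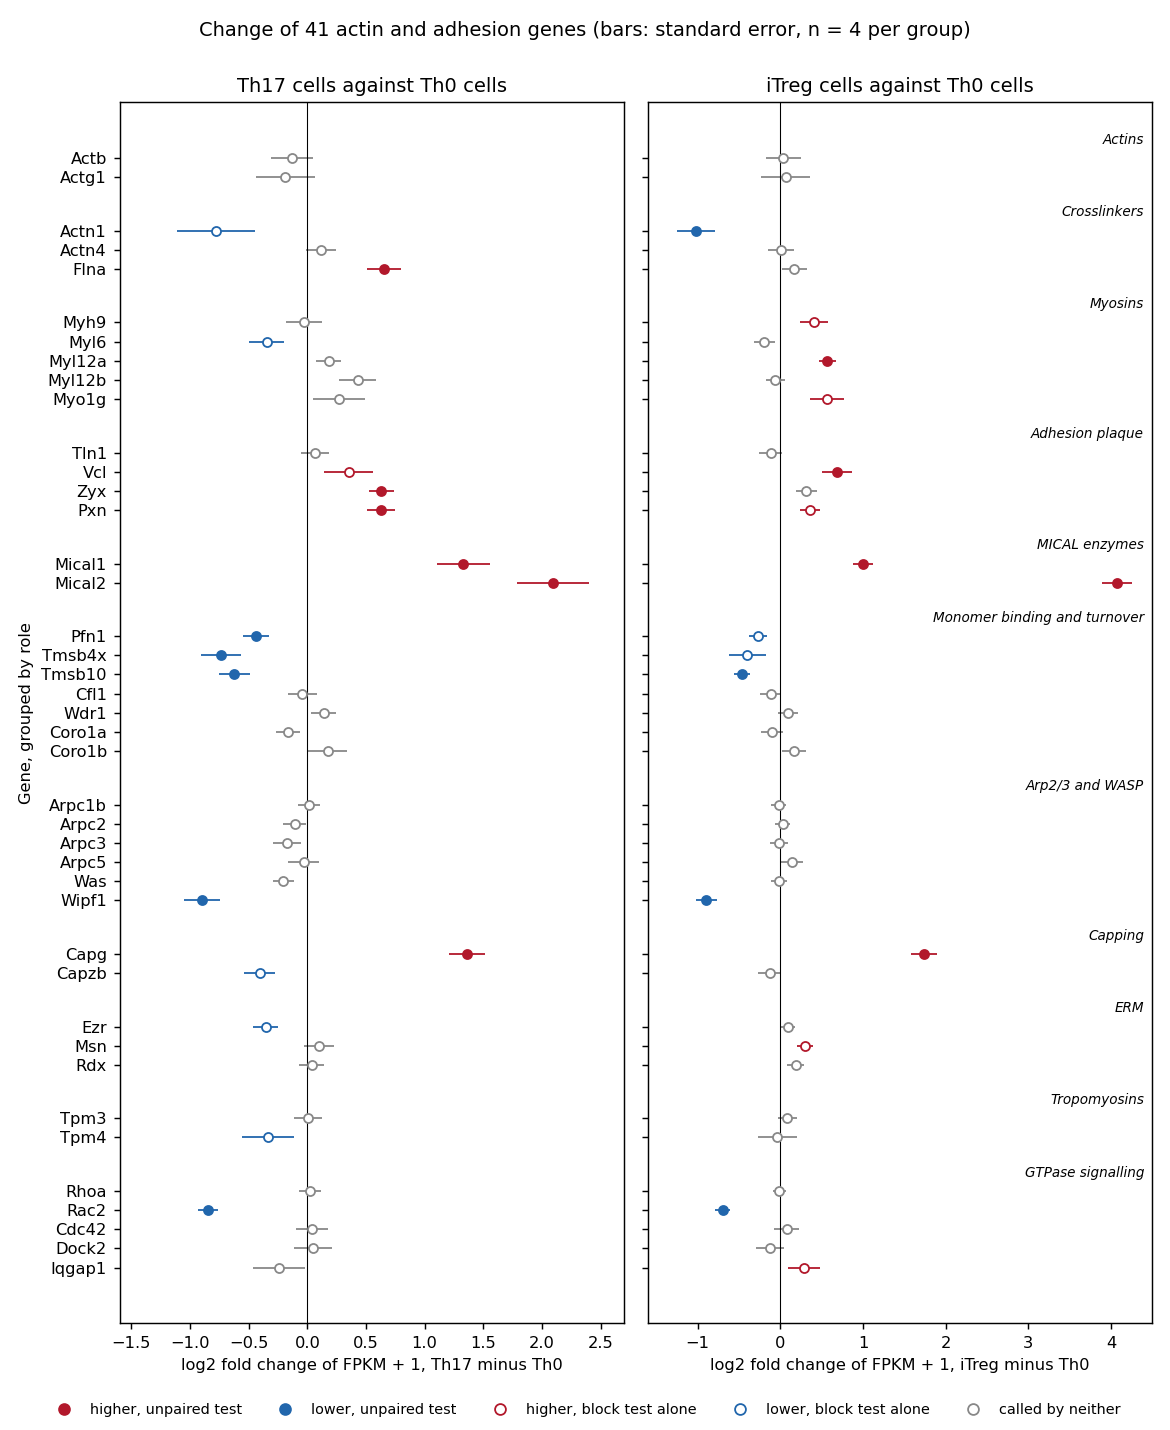
Log2 fold changes of FPKM + 1 against Th0 cells (x axis) of the 41 tested genes, grouped by role (y axis), in Th17 cells (left) and iTreg cells (right), with standard errors from limma (n = 4 libraries per group). Filled points passed the unpaired test, open coloured points only the test with the heading block; Mical2 reached 2.10 and 4.07, and most of the branching, tropomyosin, and actin genes lay near 0.

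The actins were not called in either comparison. Actb encodes β-actin and is located on the minus strand of chromosome 5 (142903115 to 142906754; all positions are in GRCm38, the build called mm10). It was at 1334, 1272, 2016, and 1867 FPKM in Th0 libraries, 1283, 1324, 1625, and 1611 FPKM in Th17 libraries, and 1410, 1247, 2045, and 1882 FPKM in iTreg libraries. The M42 and M43 libraries were higher than the M22 and M29 libraries in all 3 groups. The log2 fold change was -0.13 in Th17 cells (standard error 0.18, limma adjusted p = 0.660) and 0.04 in iTreg cells (standard error 0.21, limma adjusted p = 0.936), the latter with a sign that turned under quantile normalization. Actg1, the gene of γ-actin (chromosome 11, 120345690 to 120348542, minus strand), was likewise higher in the M42 and M43 libraries. Its FPKM were 730, 684, 1309, and 1210 in Th0, 644, 742, 1030, and 956 in Th17, and 752, 703, 1358, and 1258 in iTreg cells. In the annotation 39.4% of its 100-base stretches also occur in other genes, mostly unnamed Gm models, so reads from them may not be assignable to Actg1. Between iTreg and Th0 libraries with the same beginning, the log2 difference of Actg1 was 0.053 to 0.074 and that of Actb -0.016 to 0.097. The block test did not call either actin, with limma adjusted p of 0.305 and 0.199 in Th17 cells and 0.668 and 0.434 in iTreg cells.

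Of the thymosins, small peptides that bind actin monomers and keep them out of filaments, Tmsb10 fell in both comparisons and Tmsb4x in Th17 cells. Tmsb4x (chromosome X, 167207093 to 167209315, minus strand) had the highest level of all 42 genes, with 2078, 2693, 3279, and 3322 FPKM in Th0 libraries. It was at 1461, 1666, 1992, and 1646 FPKM in Th17 and at 1597, 1782, 2930, and 2304 FPKM in iTreg libraries. All Th17 libraries were below all Th0 libraries, but the iTreg libraries overlapped with them. Tmsb4x fell by 0.73 on the log2 scale in Th17 cells (standard error 0.17, limma adjusted p = 0.0177), a call that was lost without M42_1, M43_1, or M22_5 (limma adjusted p up to 0.0581). The iTreg difference on the log2 scale was -0.40 (standard error 0.22, limma adjusted p = 0.270), and with the block, since each iTreg library was below the Th0 library with its beginning, the adjusted p was 0.0124. Tmsb10 (chromosome 6, 72957347 to 72958748, minus strand) varied little among Th0 libraries, at 547, 610, 581, and 592 FPKM. Its values were 382, 413, 436, and 297 FPKM in Th17 and 427, 412, 462, and 368 FPKM in iTreg cells, with no overlap in either comparison. Tmsb10 fell by 0.62 in Th17 cells (standard error 0.13, limma adjusted p = 0.0115) and by 0.47 in iTreg cells (standard error 0.10, limma adjusted p = 0.0125). In the annotation 11.15% of the 100-base stretches of Tmsb10 also occur in other gene models.

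Per actin FPKM, the summed thymosins were 1.35 ± 0.233 (SD, n = 4) in Th0, 0.909 ± 0.108 in Th17, and 0.977 ± 0.115 in iTreg cells. The ratio was lowest in M43_5 at 0.757 and highest in the Th0 library M29_1 at 1.69, and neither polarized group reached the lowest Th0 value of 1.16. This ratio was formed after the values of its members had been seen and is given without a test. The 41 genes listed in both tables together made up 2.63% ± 0.218 of the listed FPKM in Th0, 2.23% ± 0.0556 in Th17, and 2.36% ± 0.233 in iTreg cells.

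**Figure D2:**
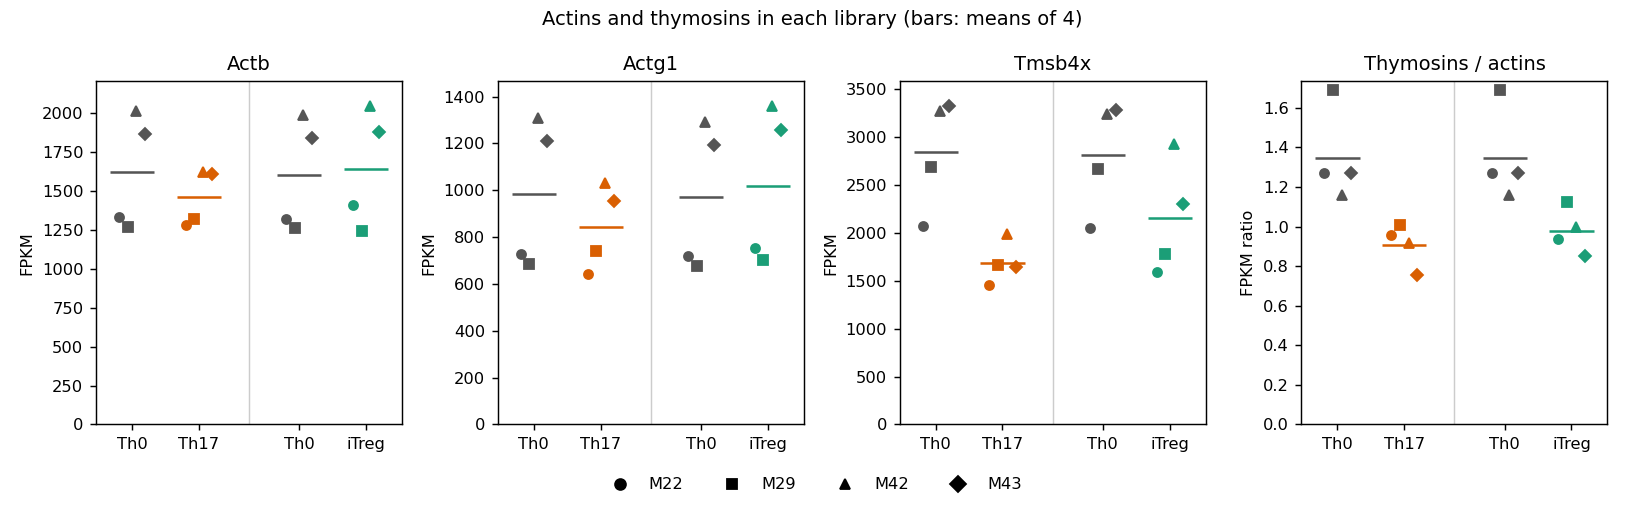
FPKM of Actb, Actg1, and Tmsb4x and the FPKM ratio of both thymosins to both actins (y axes, from 0) in each library by group (x axis), with the Th17 table left and the iTreg table right of the line; marker shapes give the heading beginning and bars the means of 4 libraries. Actin levels separate M42 and M43 from M22 and M29 libraries within each group, while the ratio is below 1.16 in all Th17 and iTreg libraries.

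Of the other genes of monomer binding and turnover, Pfn1 was called in Th17 cells. Profilin 1 delivers monomers to growing filament ends. Pfn1 mRNA (chromosome 11, 70651850 to 70654644, minus strand) was between 1105 and 1359 FPKM in Th0, 791 and 997 FPKM in Th17, and 914 and 1168 FPKM in iTreg libraries. It fell by 0.44 in Th17 cells (standard error 0.11, limma adjusted p = 0.0279), and this call did not hold without M42_1, M43_1, M22_5, or M43_5 (limma adjusted p up to 0.0835). The iTreg difference on the log2 scale was -0.27 (standard error 0.11, limma adjusted p = 0.139), with an adjusted p of 0.0159 under the block. Cofilin (Cfl1), which severs filaments, its cofactor Wdr1, and the coronins Coro1a and Coro1b were called in neither comparison with or without the block, with log2 fold changes between -0.16 and 0.17. Cfl1 was at 901 ± 96.8 FPKM (SD, n = 4) in Th0 and 876 ± 111 FPKM in Th17 cells of the Th17 table, and at 823 ± 106 FPKM in iTreg cells.

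Of the capping proteins, which close the growing end of filaments, Capg rose in both comparisons while Capzb did not. Capg, a calcium-dependent capping protein of the gelsolin family, lies on chromosome 6 from 72544391 to 72562983 on the plus strand. Its FPKM were 164, 164, 228, and 209 in Th0, 504, 457, 590, and 421 in Th17, and 550, 555, 754, and 667 in iTreg libraries. The lowest Th17 library was thus above the highest Th0 library. Capg rose by 1.36 on the log2 scale in Th17 cells (standard error 0.15, limma adjusted p = 0.000421), from 191 ± 32.2 to 493 ± 73.1 FPKM (SD, n = 4), a 2.58-fold difference of the means. In iTreg cells it rose by 1.74 (standard error 0.15, limma adjusted p = 0.000179), 3.34-fold on the means, and the differences between libraries with the same beginning were 1.69 to 1.76. Macrophages express Capg too, and the myeloid marker Cd68 was at 3.22 to 4.90 FPKM in Th0, 5.46 to 15.9 FPKM in Th17, and 2.61 to 7.19 FPKM in iTreg libraries. Cd68 was thus higher in all Th17 than in all Th0 libraries, while the iTreg libraries overlapped with Th0. The naive cells had been obtained with a CD4+CD62L+ isolation kit. The other 4 myeloid markers (Lyz2, Csf1r, Itgax, and Adgre1) had no row, which does not show that they were absent. The part of macrophages in the Capg values was not tested. Capzb encodes the β subunit of the heterodimeric capping protein. Its means were 187 ± 25.9 FPKM in Th0 and 141 ± 14.5 FPKM in Th17 cells (log2 fold change -0.41, standard error 0.13, limma adjusted p = 0.0616; 0.0101 with the block), and 169 ± 23.9 FPKM in iTreg cells (-0.13, standard error 0.14, limma adjusted p = 0.606). The groups did not overlap in Th17 cells. Capg was about as abundant as Capzb in Th0 cells, with a ratio of 1.02 ± 0.0427 (SD, n = 4), and the ratio was 3.52 ± 0.514 in Th17 and 3.73 ± 0.121 in iTreg cells, given as a description without a test.

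With a pseudocount of 1, Mical2 had the largest log2 fold change of the 41 genes in both comparisons. MICAL enzymes are flavoprotein monooxygenases that oxidize actin and thereby take filaments apart. Mical2 (chromosome 7, 112225856 to 112413106, plus strand) was close to 0 in Th0 cells, at 0, 0.0173, 0.0293, and 0.0872 FPKM, which correspond to 0, 1, 2, and 6 reads by the steps of low values. Its FPKM were 3.16, 1.24, 5.79, and 5.02 in Th17 and 23.1, 11.1, 16.4, and 16.9 in iTreg libraries. By the same steps these are 88 to 374 and 810 to 1855 reads, so the difference does not rest on single reads outside the Th0 group. Mical2 rose by 2.10 in Th17 cells (standard error 0.31, limma adjusted p = 0.00177) and by 4.07 in iTreg cells (standard error 0.19, limma adjusted p = 9.16e-06). Both values depend on the pseudocount. They were 4.70 and 6.99 with 0.1, and 0.77 and 2.09 with 5, where the Th17 value was below those of Capg (1.35) and Mical1 (1.23). Mical2 passed the filter only through its Th17 or iTreg libraries, since no Th0 library exceeded 1 FPKM. Its direction and the lack of overlap were thus set by the filter, and its p-values add no support. When a Th17 or iTreg library was left out, too few libraries exceeded 1 FPKM for Mical2 to be tested. Mical1 (chromosome 10, 41476314 to 41487032, plus strand) was well expressed in Th0 cells, at 35.8, 25.3, 33.6, and 29.7 FPKM. It was at 116, 93.1, 61.1, and 59.4 FPKM in Th17 and at 66.1, 61.9, 62.3, and 57.3 FPKM in iTreg libraries. The M22 and M29 libraries were higher than the others in Th17 cells, and iTreg libraries lay close together. Mical1 rose by 1.33 in Th17 cells (standard error 0.23, limma adjusted p = 0.00387) and by 0.99 in iTreg cells (standard error 0.12, limma adjusted p = 0.000852). The gene Smpd2 on the opposite strand and Mical1 share 15.0% of Mical1's exonic bases, and reads there cannot be assigned without strand.

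Among the adhesion plaque genes, Zyx and Pxn rose in Th17 cells and Vcl in iTreg cells. Zyxin is recruited to stretched filaments, and its gene lies on chromosome 6 from 42349630 to 42360213 on the plus strand. Zyx was at 24.2, 29.3, 26.3, and 27.0 FPKM in Th0, 45.6, 37.4, 44.7, and 39.8 FPKM in Th17, and 31.4, 27.1, 37.2, and 37.5 FPKM in iTreg libraries. Only the Th17 libraries were all above the Th0 libraries. Zyx rose by 0.63 in Th17 cells (standard error 0.11, limma adjusted p = 0.00396), and the iTreg difference on the log2 scale was 0.32 (standard error 0.13, limma adjusted p = 0.129). Pxn encodes paxillin, a scaffold that binds kinases and vinculin (chromosome 5, 115506676 to 115555987, plus strand). The libraries had 24.0, 22.7, 18.5, and 19.2 FPKM in Th0, 35.6, 34.3, 32.8, and 29.3 FPKM in Th17, and 31.3, 25.2, 26.2, and 25.3 FPKM in iTreg cells. No polarized library was as low as any Th0 library. Pxn rose by 0.63 in Th17 cells (standard error 0.12, limma adjusted p = 0.00650), and in iTreg cells the log2 fold change of 0.36 passed only with the block (standard error 0.12, limma adjusted p = 0.0769; 0.0113 with the block).

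Vcl, the gene of vinculin, which reinforces the link of talin to actin, was low in these cells (chromosome 14, 20929398 to 21033676, plus strand). It had 3.06, 2.63, 1.65, and 2.54 FPKM in Th0, 5.13, 3.43, 2.16, and 3.27 FPKM in Th17, and 4.64, 3.41, 3.99, and 6.18 FPKM in iTreg libraries. The iTreg libraries did not overlap with the Th0 libraries, and the Th17 libraries did. Vcl rose by 0.68 in iTreg cells (standard error 0.18, limma adjusted p = 0.0338), but the call was lost when M29_1, M42_1, M43_1, M22_4, M42_4, or M43_4 was left out (limma adjusted p up to 0.0895). The Th17 difference on the log2 scale was 0.35 (standard error 0.21, limma adjusted p = 0.289), and 0.0246 was the adjusted p with the block. Ap3m1 on the opposite strand overlaps 25.5% of the exonic bases of Vcl. Talin (Tln1), which activates integrins, was at 65.9 ± 3.11 FPKM in Th0 and 69.6 ± 10.7 FPKM in Th17 cells (SD, n = 4), and at 60.8 ± 11.9 FPKM in iTreg cells, and was called in neither fit (limma adjusted p of 0.750 and 0.637; 0.595 and 0.376 with the block).

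The crosslinkers differed from each other. Flna, the gene of filamin A, which ties filaments into networks and binds integrin tails (chromosome X, 74223461 to 74249820, minus strand), was at 69.5, 63.9, 77.5, and 87.6 FPKM in Th0, 121, 112, 99.5, and 140 FPKM in Th17, and 76.5, 68.9, 83.1, and 106 FPKM in iTreg libraries. Th17 libraries were all above the Th0 libraries, and each iTreg library was slightly above the Th0 library with its beginning. Flna rose by 0.65 in Th17 cells (standard error 0.14, limma adjusted p = 0.0127), and its log2 fold change in iTreg cells was 0.17 (standard error 0.15, limma adjusted p = 0.524; 0.0837 with the block). Actn1 encodes α-actinin 1, which bundles filaments at adhesions (chromosome 12, 80167547 to 80260371, minus strand). Its FPKM were 89.6, 97.0, 46.6, and 53.1 in Th0, 51.0, 46.4, 21.1, and 47.6 in Th17, and 35.6, 31.5, 29.9, and 34.4 in iTreg libraries. The Th0 libraries themselves fell into a higher pair, M22 and M29, and a lower pair, while iTreg libraries were nearly equal. Actn1 fell by 1.02 in iTreg cells (standard error 0.23, limma adjusted p = 0.0193), a call lost without M22_1 or M42_4 (limma adjusted p of 0.0555 and 0.0520). In Th17 cells the log2 fold change of -0.78 was not called (standard error 0.33, limma adjusted p = 0.144), except with the block (0.0116). Without M42_5, the Th17 library at 21.1 FPKM, the log2 fold change in Th17 cells was -0.49. Actn4, the other α-actinin, was at 106 ± 14 FPKM in Th0 and 115 ± 13.0 FPKM in Th17 cells (SD, n = 4; limma adjusted p = 0.574), and at 106 ± 21.1 FPKM in iTreg cells (limma adjusted p = 0.979).

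**Figure D3:**
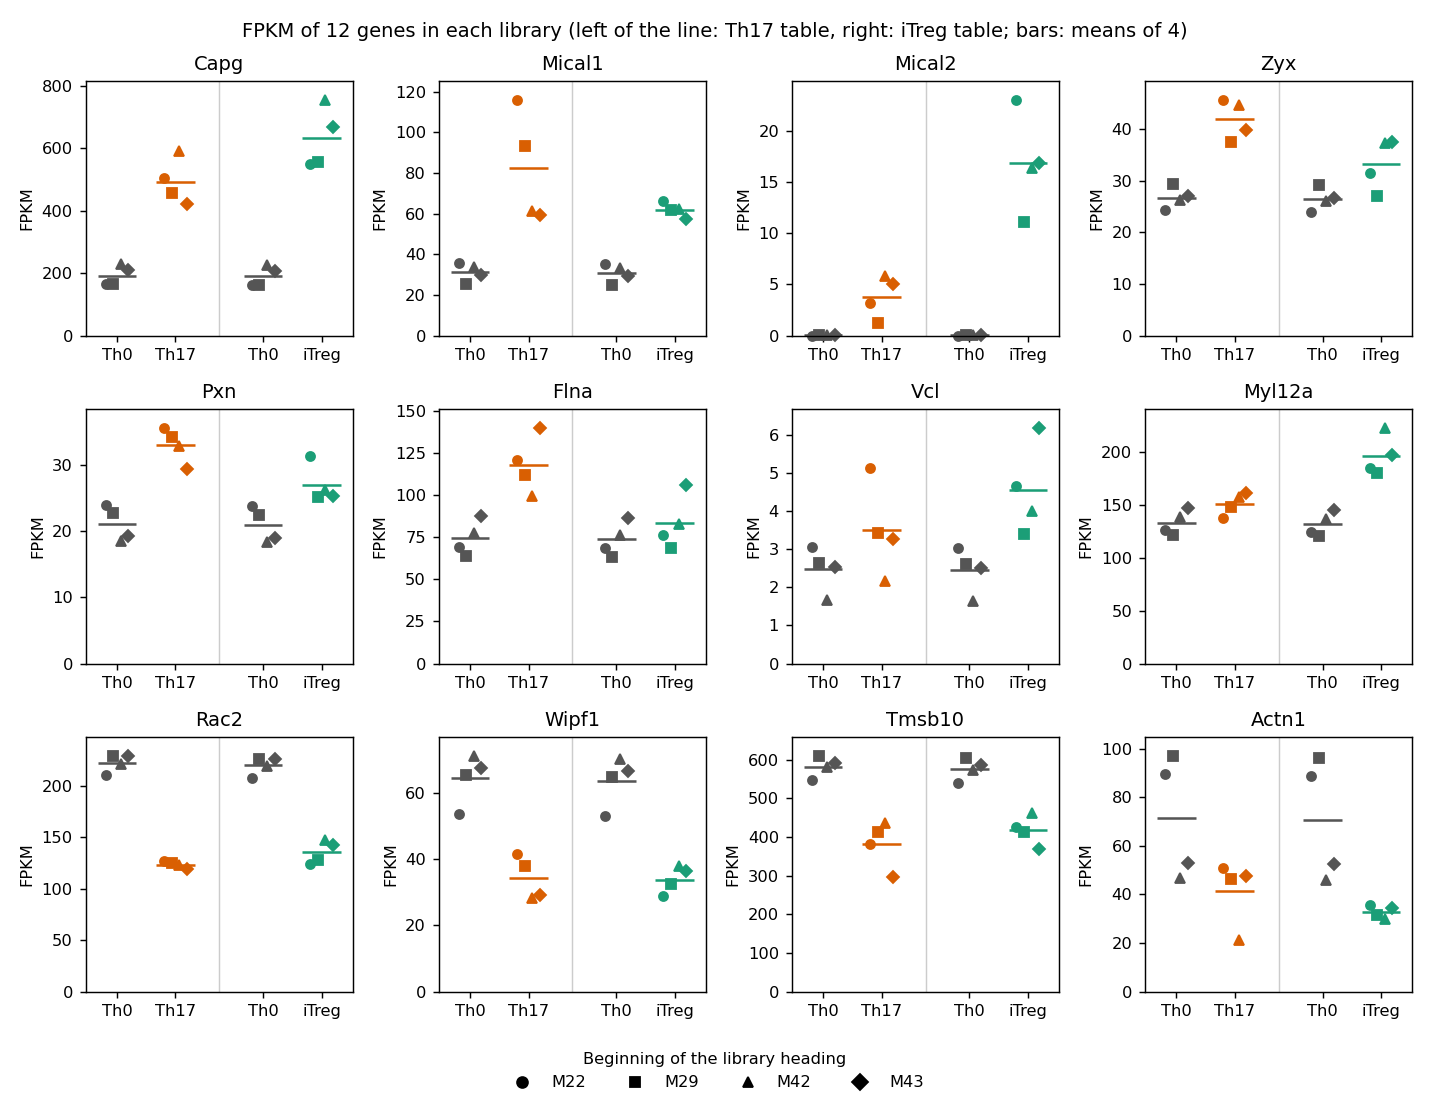
FPKM (y axes, from 0) of 12 called genes in each library by group (x axis), with the Th17 table left and the iTreg table right of the line; marker shapes give the heading beginning and bars the means of 4 libraries. Capg, Mical1, and Mical2 are higher and Rac2, Wipf1, and Tmsb10 lower in all polarized libraries than in all Th0 libraries, and Actn1 of Th0 cells lies in separate M22 and M29 and M42 and M43 levels.

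Because SRF is a common regulator of actin and vinculin genes, its binding motif, the CArG box, was looked for in windows of 250 bases before to 50 bases after the gene start (RefSeq, GRCm38.p6). The motif reads the same on both strands. Windows were at hand for 38 of the 42 genes, and 3 of them (7.90%) held a box, Actg1, Vcl, and Myl6, beside 1.81% of all 27025 genes with a window. The genes Actb, Pxn, Coro1b, and Rac2 were without a window. The stretches of the actin Actg1 and of Vcl, which was called in iTreg cells, are shown with the box in capitals.
Actg1, chr11:120348546-120348615, minus strand: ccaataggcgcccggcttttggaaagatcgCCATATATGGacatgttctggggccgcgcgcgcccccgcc
Vcl, chr14:20929148-20929210, plus strand: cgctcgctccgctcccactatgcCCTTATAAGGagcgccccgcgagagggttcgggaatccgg
Counted from the RefSeq gene starts, the box begins 90 bases before Actg1 (start 120348495, which lies inside the GENCODE gene model given above), 227 before Vcl, and 50 before Myl6. A match describes the letters alone, and the other genes may hold the motif outside these windows. Srf itself was at 23.4 ± 2.65 FPKM in Th0 and 24.0 ± 1.27 FPKM in Th17 cells (limma adjusted p = 0.848), and at 18.9 ± 1.67 FPKM in iTreg cells (SD, n = 4; log2 fold change -0.28, limma adjusted p = 0.136; 0.0133 with the block). Of its actin-regulated coactivators, Mkl2 fell by 0.48 in iTreg cells (standard error 0.13, limma adjusted p = 0.0315), from 4.23 ± 0.869 to 2.71 ± 0.184 FPKM, and its log2 fold change in Th17 cells was -0.04 (limma adjusted p = 0.846). Mkl1, the other coactivator tested, was not called without the block, at -0.23 in Th17 cells (limma adjusted p = 0.198; 0.0942 with the block) and -0.33 in iTreg cells (limma adjusted p = 0.0515; 0.00674 with the block).

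The myosin chains followed no single direction. Myl12a, a regulatory light chain of nonmuscle myosin II (chromosome 17, 70993656 to 71002878, minus strand), was at 126, 122, 139, and 147 FPKM in Th0, 138, 149, 158, and 161 FPKM in Th17, and 185, 181, 223, and 198 FPKM in iTreg libraries. It rose by 0.57 in iTreg cells (standard error 0.11, limma adjusted p = 0.00761) with no overlap of the groups, and its log2 fold change in Th17 cells was 0.18 (standard error 0.10, limma adjusted p = 0.272). The neighbouring gene Myl12b encodes a nearly identical light chain. Stretches of 100 bases found in other gene models make up 19.2% of Myl12a (shared with Myl12b and Myom1). They make up 29% of Myl12b (shared with a second model named Myl12b and with Myl12a). Reads from these stretches may not be assignable to a single model, and the part shared by Myl12a and Myl12b alone was not separated. Myl12b was not called. Its log2 fold change was 0.43 in Th17 cells (standard error 0.16, limma adjusted p = 0.0999), where M43_5 had 278 FPKM and the mean was 215 ± 45.2 FPKM (SD, n = 4), and -0.06 in iTreg cells (standard error 0.12, limma adjusted p = 0.792). Myh9, the heavy chain of nonmuscle myosin IIA, was at 268 ± 35.9 FPKM in Th0 and 264 ± 48.3 FPKM in Th17 cells (limma adjusted p = 0.922), a difference of unstable sign. In iTreg cells it was at 356 ± 74.4 FPKM (log2 fold change 0.41, standard error 0.17, limma adjusted p = 0.135; 0.0131 with the block). The essential light chain Myl6 was at 729 ± 107 FPKM in Th0 and 574 ± 93.7 FPKM in Th17 cells (log2 fold change -0.34, standard error 0.15, limma adjusted p = 0.149; 0.0326 with the block), and at 627 ± 56.2 FPKM in iTreg cells (limma adjusted p = 0.365). Myo1g, a class I myosin of the lymphocyte membrane, had a log2 fold change of 0.56 in iTreg cells (standard error 0.21, limma adjusted p = 0.10; 0.0107 with the block) and of 0.27 in Th17 cells (limma adjusted p = 0.443). Myo1f had means of 0.230 FPKM in Th0 and 0.568 FPKM in Th17 cells and was too low to be tested.

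Of the 6 branching genes, the WASP partner Wipf1 alone was called, in both comparisons and in both fits. Wipf1 encodes WIP, which binds WASP and protects it from degradation (chromosome 2, 73429610 to 73529734, minus strand). Its FPKM were 53.7, 65.4, 71.3, and 67.6 in Th0, 41.6, 38.0, 28.4, and 29.3 in Th17, and 28.8, 32.5, 37.9, and 36.4 in iTreg libraries. All polarized libraries were below all Th0 libraries. Wipf1 fell by 0.90 in Th17 cells (standard error 0.15, limma adjusted p = 0.00400) and by 0.89 in iTreg cells (standard error 0.13, limma adjusted p = 0.00203). Was, the gene of WASP, was at 47.2 ± 1.97 FPKM in Th0 and 40.9 ± 1.71 FPKM in Th17 cells (SD, n = 4), and the groups did not overlap. Its log2 fold change of -0.20 was not called (standard error 0.09, limma adjusted p = 0.143; 0.0790 with the block), and in iTreg cells it was -0.01 (limma adjusted p = 0.945). The Arp2/3 subunits Arpc1b, Arpc2, Arpc3, and Arpc5 had log2 fold changes between -0.17 and 0.01 in Th17 and between -0.02 and 0.14 in iTreg cells, and none was called with or without the block. Of 5 further Arp2/3 subunits and 8 genes of the WAVE complex, WIP family, and N-WASP, none was called without the block in either comparison. With the block, 0 of the 5 subunits and 4 of the 8 other genes passed in Th17 cells (Cyfip2, Abi1, and Wipf2 higher and Brk1 lower), and Actr3 (lower) and 3 of the 8 (Wasf2 and Cyfip1 higher and Brk1 lower) in iTreg cells. The log2 fold change of Actr3 was -0.19 (standard error 0.10, limma adjusted p = 0.218; 0.0444 with the block).

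Of the 5 genes of GTPase signalling among the 42, Rac2 was called in both comparisons and both fits, and Iqgap1 in iTreg cells with the block alone. Rac2 is the Rac of blood cells, which drives branched actin at the cell edge, and its gene lies on chromosome 15 from 78559167 to 78572783 on the minus strand. The libraries had 210, 228, 221, and 229 FPKM in Th0, 127, 125, 123, and 119 FPKM in Th17, and 124, 128, 148, and 142 FPKM in iTreg cells. The spread within each group was small next to the distance between the groups. Rac2 fell by 0.84 in Th17 cells (standard error 0.09, limma adjusted p = 0.000237) and by 0.70 in iTreg cells (standard error 0.09, limma adjusted p = 0.00140). Between groups lay 99.0% of the sum of squares of its log2 values in the Th17 table and 94.9% in the iTreg table. Rhoa and Cdc42, the GTPases of contraction and of polarity, and Dock2, which activates Rac in lymphocytes, had log2 fold changes between -0.12 and 0.08 and were called in neither fit. The scaffold Iqgap1 was at 58.0 ± 10.4 FPKM in Th0 and 49.8 ± 15.3 FPKM in Th17 cells (SD, n = 4; limma adjusted p = 0.497), and at 70.6 ± 16.8 FPKM in iTreg cells (log2 fold change 0.29, standard error 0.20, limma adjusted p = 0.379; 0.0333 with the block).

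ERM proteins tie the plasma membrane to the cortex. Msn, the gene of moesin (chromosome X, 96096042 to 96168552, plus strand), was at 270, 279, 289, and 307 FPKM in Th0, 289, 264, 304, and 381 FPKM in Th17, and 327, 319, 358, and 395 FPKM in iTreg libraries. All iTreg libraries were above the Th0 libraries, by 0.30 on the log2 scale (standard error 0.10, limma adjusted p = 0.0762; 0.0116 with the block). In Th17 cells it was 0.10 (limma adjusted p = 0.639) and turned sign without M43_5. Ezr, the gene of ezrin, was at 83.4 ± 6.76 FPKM in Th0 and 65.1 ± 6.52 FPKM in Th17 cells without overlap (log2 fold change -0.36, standard error 0.11, limma adjusted p = 0.0521; 0.0263 with the block). In iTreg cells Ezr was at 87.8 ± 4.62 FPKM (log2 fold change 0.09, limma adjusted p = 0.583). Whether its difference from Th0 cells was unlike in the groups was not tested. Radixin (Rdx) was called in neither comparison (limma adjusted p of 0.836 and 0.253). The tropomyosins, which coat and protect filaments, were not called without the block. Tpm3 had log2 fold changes of 0.0054 and 0.09, and Tpm4 of -0.33 (standard error 0.22, limma adjusted p = 0.342; 0.0218 with the block) and -0.04 in Th17 and iTreg cells.

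Since both comparisons share their Th0 libraries, calls that coincide are not independent of each other. The direction of Mical2 was moreover set by the filter in both. Side by side, Capg, Mical1, and Mical2 were called higher and Rac2, Tmsb10, and Wipf1 lower in both, Flna, Pxn, and Zyx higher and Pfn1 and Tmsb4x lower in Th17 cells alone, and Myl12a and Vcl higher and Actn1 lower in iTreg cells alone. The other 27 genes were called in neither, and 0 had calls of opposite direction. With the block, 11 genes were called in both (5 higher and 6 lower), 6 in Th17 cells alone, 5 in iTreg cells alone, and 19 in neither of the 41 tested. Of all tested genes, 19.3% (Th17) and 16.6% (iTreg) were called without the block, and 37.8% and 40.9% with it. The share of all genes called in both is not given here, so the overlap is not a result about the actin and adhesion genes. Flna and Zyx were called in Th17 cells alone in both fits. A call in a single comparison does not show that the responses of the cell types differ, which was not tested.

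The variation of each gene was also divided between heading beginnings and cell types. For each gene the sum of squares of log2(FPKM + 1) was divided into parts between the groups, between the beginnings, and the rest. The 4 beginnings hold 3 of the 7 degrees of freedom and the 2 groups hold 1, so that with no difference of either kind the parts would average 42.9% and 14.3%, and the share of all genes is the reference for each count. The part between beginnings was the larger for 25 of 41 genes in the Th17 table (61.0%, against 61.4% of all tested genes) and for 25 of 41 in the iTreg table (61.0%, against 65.1%). It was over 75% for 13 genes (31.7%, against 22.2% of all genes) in the Th17 table and for 17 genes (41.5%, against 29.3%) in the iTreg table. Actb and Actg1 had 84.2% and 86.8% between beginnings in the Th17 table and 99.1% and 99.4% in the iTreg table, and Tpm4 had 99.0% in the latter. Capg (92.4% and 95%) and Wipf1 (84.2% and 89.7%) lay at the other end, with most of their variation between the groups. For Mical2 (84.9% and 98.5%), a large part between the groups was set by the filter. As the meaning of the beginnings is not stated, this is a description of the libraries.

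**Figure D4:**
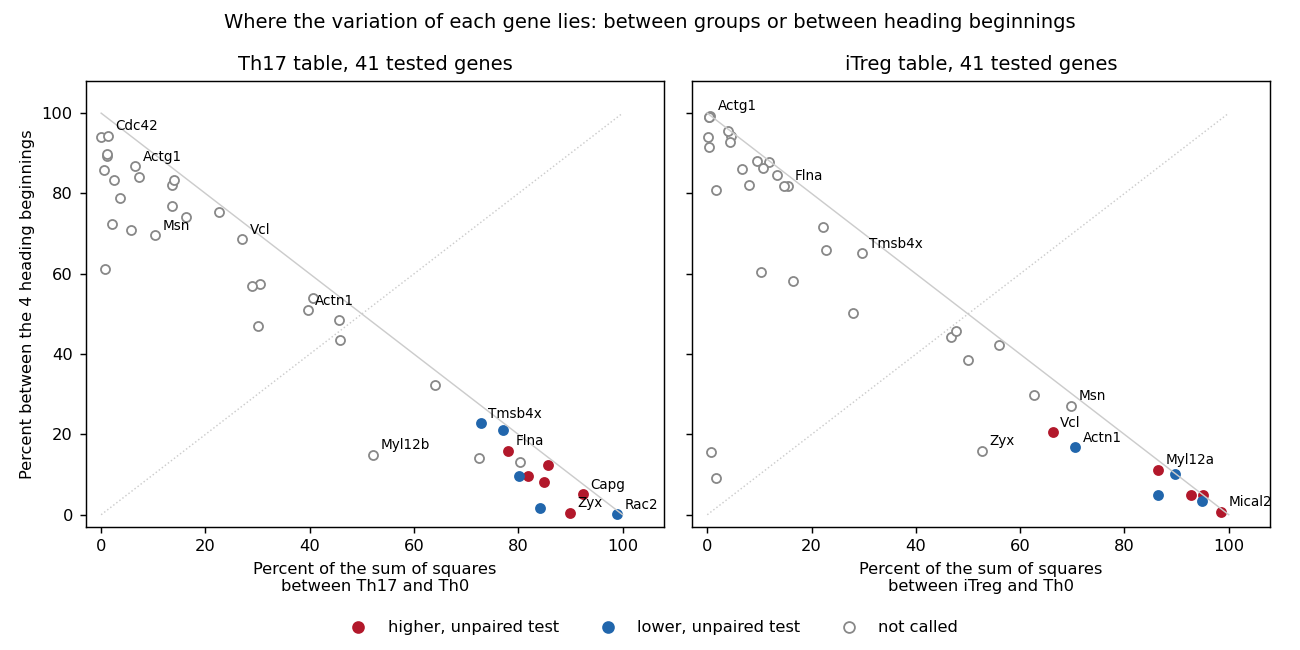
Percent of the sum of squares of log2(FPKM + 1) of each of 41 tested genes that lies between the cell types (x axis) and between the 4 heading beginnings (y axis), in the Th17 table (left) and the iTreg table (right); on the solid line no other variation is left, and above the dotted line the beginnings account for more (filled, called by the unpaired test; open, not called). The actins lie at the upper left, with 99.1% and 99.4% between beginnings in the iTreg table, and Rac2 and Capg at the lower right.

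A wider list of 90 actin regulators, picked by role with earlier results of these data known, moved to a similar extent. In Th17 cells, 18 of 80 tested regulators were called (11 higher and 7 lower; 22.5%, against 19.3% of all genes), and 29 with the block (36.25%, against 37.8%). In iTreg cells, 18 of 81 were called (8 higher and 10 lower; 22.2%, against 16.6%), and 37 with the block (45.7%, against 40.9%). The smallest adjusted p in Th17 cells were those of Ssh2, Gmfb, Lpxn, and Dock10. Ssh2, a phosphatase that switches cofilin on, rose from 17.1 ± 1.72 to 61.7 ± 9.71 FPKM (SD, n = 4; log2 fold change 1.79, limma adjusted p = 4.86e-05). In iTreg cells Ssh2 was at 15.9 ± 1.71 FPKM (log2 fold change -0.09, limma adjusted p = 0.672). Lpxn, the gene of the paxillin relative leupaxin, rose by 2.64 in Th17 cells (standard error 0.28, limma adjusted p = 0.000287), from 31.8 ± 12.2 to 197 ± 47.5 FPKM. In iTreg cells it was at 66.5 ± 25.8 FPKM and passed only with the block (limma adjusted p = 0.0611; 0.000179 with the block). Dock10, an activator of Cdc42 and Rac, fell by 1.46 in Th17 cells (limma adjusted p = 0.000467) and by 0.67 in iTreg cells (limma adjusted p = 0.00438).

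The smallest adjusted p of the regulators in iTreg cells were those of Tes, Gmfb, Gmfg, and Myo5a. Gmfb and Gmfg encode the glia maturation factors, which remove Arp2/3 branches, and they moved in opposite directions in both cell types. Gmfb rose from 33.6 ± 3.26 to 76.2 ± 6.66 FPKM in Th17 cells (log2 fold change 1.16, limma adjusted p = 0.000186) and to 68.8 ± 10.2 FPKM in iTreg cells (1.02, limma adjusted p = 0.000997). Gmfg fell from 37.9 ± 7.69 to 19.8 ± 5.98 FPKM in Th17 cells (log2 fold change -0.93, limma adjusted p = 0.0188) and to 11 ± 4.4 FPKM in iTreg cells (-1.73, limma adjusted p = 0.00194). Tes, the gene of the zyxin-binding adhesion protein testin, rose by 1.24 in iTreg cells (limma adjusted p = 0.000699) and by 0.60 in Th17 cells (limma adjusted p = 0.0149). The organelle motor Myo5a rose by 0.75 in iTreg (limma adjusted p = 0.00265) and by 0.96 in Th17 cells (limma adjusted p = 0.0149).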

How the data were processed

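RNA from 12 libraries, 4 each of Th0, Th17, and iTreg cells, had been sequenced. The authors aligned reads with TopHat2 2.0.14 to mm10, counted them on exons with HTSeq without strand, and compared the counts by edgeR, with libraries paired. How FPKM were calculated, and on which annotation, is not stated. The authors deposited 2 tables with the FPKM of 8 libraries each, scaled apart, and with fold changes and p-values of their own, which were not used. Groups come from the labels, and column headings show the group but no experiment number.

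The filter (over 1 FPKM in 4 or more of 8 libraries) kept 10269 of 11077 genes for Th17 and 10208 of 11056 for iTreg cells. Limma 3.58.1 under R 4.3.3 was run on log2(FPKM + 1). Its p-values were adjusted by Benjamini-Hochberg, with a threshold of 0.05, and the scale shrinks the change of low genes. The method was tested on simulated data in which libraries varied independently. The simulation held no effect shared by libraries that begin alike, so it cannot tell which of the fits suits these data. Same-beginning libraries correlated in their deviations from the group means at 0.450 to 0.784 (Th17 table) and 0.662 to 0.769 (iTreg table), others at -0.590 to 0.434 and -0.576 to 0.248, so every pair exceeded 0.1 and a block on the beginning, as in the authors' paired comparison, was fitted too. Total counts are not in the tables, so no counting intervals are given. The limma p-values weigh a group difference against the spread between these libraries. Without the block, that spread includes the differences between heading beginnings.

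All 42 genes are named. Library values are given for the 10 genes of each comparison with the smallest adjusted p plus Actb and Actg1, and of the regulators the 4 called ones with the smallest adjusted p are named. Srf, Mkl1, Mkl2, and the Arp2/3 and WAVE genes called with the block are named in addition, after their values were seen. Members and lists were chosen with earlier results of these data known. Coordinates, overlaps, and shared stretches of 100 bases come from GENCODE M21 (GRCm38, the build of mm10), with the lower identifier of both Myl12b models. Windows for the motif come from RefSeq. Permutation tests and tallies used Python 3.11.15, numpy 2.4.6, and pandas 2.3.3, and plots matplotlib 3.10.9. Alternatives were other pseudocounts, no filter, an intensity trend, median and quantile scaling, a threshold of 0.01, the block, and each library left out. Of the markers looked for, 1 is not reported here.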

Additional observations from a re-analysis of the deposited data

Results flagged for a closer look

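Actn1 in the Th17 library M42_5 stood apart from its group. It was at 21.1 FPKM, where the nearest of the other Th17 libraries had 46.4 FPKM, and this gap was 0.845 of the range of the group, above Dixon's 95% critical value for 4 libraries. Of 72 groups of 4 libraries looked at, this was the only such value, while 3.6 would be reached by chance. The Th0 library with the same beginning, M42_1, also had the lowest Actn1 of its group, at 46.6 FPKM.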

How the results depend on the processing

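At a threshold of 0.01, 7 of the 41 genes were called in Th17 cells, with 10 of the regulators in each comparison and 995 (Th17) and 778 (iTreg) of all genes. With the heading block, the pairing by beginnings, 17 genes were called in Th17 and 16 in iTreg cells, with 29 and 37 regulators and 3882 and 4170 of all genes, and no gene of the 42 lost its call. Fold changes are the same in both fits by construction. With each library left out in turn, all genes called ranged from 1218 to 2083 in Th17 cells (the lowest without M22_5, and 1313 without M43_1) and from 994 (without M22_4) to 1477 in iTreg cells, and actin and adhesion genes from 8 to 12 and from 6 to 9. Quantile normalization turned Myh9 in Th17 cells to 0.051 and Actb in iTreg cells to -0.17. With a library left out, the log2 fold changes that turned sign ranged from -0.0050 to 0.17 for Msn and from -0.14 to 0.052 for Myh9 in Th17 cells, and from -0.077 to 0.16 for Actb, from -0.095 to 0.22 for Actg1, and from -0.19 to 0.15 for Tpm4 in iTreg cells, none of them called. The cause was not tested. Among the 42 genes, the calls lost with a library left out were those of Pfn1 and Tmsb4x in Th17 cells and Actn1 and Vcl in iTreg cells, and the pseudocounts, the filter, the trend, and both scalings ended none. Regulators called ranged from 13 to 19 in Th17 and from 12 to 16 in iTreg cells with a library left out, and from 16 to 19 and from 17 to 22 under those other settings. Depth limits Mical2 in Th0 cells, at 0 to 6 reads, and genes under the filter such as Myo1f. With a Th17 or iTreg library left out, Mical2 could not be tested.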
